A study of Mus musculus with 6 samples.

Results

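The genes described here are 10 genes of androgen synthesis in the fetal testis and of its hormonal control, most of them known from fetal Leydig cells, the hormone-producing cells that lie between the testis cords. They were chosen by name as Star, Cyp11a1, Fdx1, Fdxr, Hsd3b1, Cyp17a1, Hsd17b1, Hsd17b3, Insl3 and Lhcgr, and were found on the array as the probes whose transcript maps to one of those symbols. Of the 10, 9 had a probe, with 11 probes in all among 39429 gene probes, and these 9 were among the 19670 genes tested. Insl3, which encodes the Leydig hormone that guides descent of the testis, had no probe by that rule and is not analysed here.

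Gene expression was measured on 6 one-colour Agilent arrays, 1 per sample. For soma, 3 samples of somatic cells were taken from the genital ridges of male embryos at E13.5, from a cross of MCH with C57BL6/J that carries the Oct5<delta>PE-GFP transgene. For ESC, 3 samples came from 1 male embryonic stem cell line, VR15, which carries the Vasa::RFP transgene. Per the labels these are biological replicates. How the somatic cells were set apart from other cells, and whether a soma sample pools several embryos is not given in the sources used here.

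Steroid hormones are made from cholesterol. The carrier protein STAR brings cholesterol to the inner mitochondrial membrane, where CYP11A1 cuts its side chain to give pregnenolone, using electrons that pass from ferredoxin reductase (Fdxr) through ferredoxin (Fdx1). HSD3B1 and CYP17A1 turn pregnenolone into androstenedione, and enzymes of the HSD17B family reduce that to testosterone, a step that the mouse fetal testis is known to carry out largely in Sertoli cells, the supporting cells of the cords. LHCGR is the receptor through which luteinizing hormone drives steroid synthesis in Leydig cells.

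Promoter windows of RefSeq on GRCm38.p6 (250 bases before to 50 bases after an annotated start) were at hand for 7 of the 10 genes, as 8 windows. Those of the side-chain cleavage genes and of Hsd3b1 are shown, since they set 2 genes that were not above background in ESC beside 2 that were well above it in both groups. They are written 5′ to 3′ on the gene's strand, with capitals for matches to GATAA (the core bound by GATA factors), TATAA (the core of a TATA box) and GGCGGG (the GC box), searched on both strands, where TTATAA holds TATAA on each strand with overlap.
Cyp11a1, first annotated start (chr9:57997774-57998073, + strand): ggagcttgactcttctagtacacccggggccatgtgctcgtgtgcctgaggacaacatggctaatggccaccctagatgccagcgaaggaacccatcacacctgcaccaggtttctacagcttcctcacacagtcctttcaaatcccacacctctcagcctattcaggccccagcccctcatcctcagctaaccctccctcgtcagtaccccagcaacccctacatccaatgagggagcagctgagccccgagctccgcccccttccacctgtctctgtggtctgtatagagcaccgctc
Cyp11a1, second annotated start (chr9:58014702-58015001, + strand): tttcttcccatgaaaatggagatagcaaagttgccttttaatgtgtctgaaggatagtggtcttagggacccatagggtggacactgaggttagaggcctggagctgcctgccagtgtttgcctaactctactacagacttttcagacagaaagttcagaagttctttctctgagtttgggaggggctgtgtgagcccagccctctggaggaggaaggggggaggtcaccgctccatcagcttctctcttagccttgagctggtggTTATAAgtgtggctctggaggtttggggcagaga
Hsd3b1 (chr3:98859745-98860044, - strand): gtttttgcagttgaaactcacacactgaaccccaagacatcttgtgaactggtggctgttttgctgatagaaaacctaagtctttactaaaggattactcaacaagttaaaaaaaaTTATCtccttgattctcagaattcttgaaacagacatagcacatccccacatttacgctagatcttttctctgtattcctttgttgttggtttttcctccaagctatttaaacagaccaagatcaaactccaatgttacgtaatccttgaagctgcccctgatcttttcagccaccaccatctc
Fdx1 (chr9:51963553-51963852, - strand): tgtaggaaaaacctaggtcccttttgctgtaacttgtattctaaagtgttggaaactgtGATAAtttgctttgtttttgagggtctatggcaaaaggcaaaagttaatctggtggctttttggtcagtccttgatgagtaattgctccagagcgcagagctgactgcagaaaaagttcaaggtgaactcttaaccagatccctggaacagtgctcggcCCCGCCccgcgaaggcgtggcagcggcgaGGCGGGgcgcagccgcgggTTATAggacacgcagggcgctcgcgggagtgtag
Fdxr (chr11:115276920-115277219, - strand): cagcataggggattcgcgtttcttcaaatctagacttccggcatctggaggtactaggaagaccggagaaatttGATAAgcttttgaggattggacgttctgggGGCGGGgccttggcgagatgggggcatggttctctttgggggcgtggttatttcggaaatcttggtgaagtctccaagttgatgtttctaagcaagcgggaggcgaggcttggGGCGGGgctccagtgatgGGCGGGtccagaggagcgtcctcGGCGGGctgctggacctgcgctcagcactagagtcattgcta

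The windows of Cyp11a1 held 7 and 1 CpG pairs and that of Hsd3b1 held 2, whereas those of Fdx1 and Fdxr held 16 and 17, against a median of 7 over 32851 windows. The G and C content of the Hsd3b1 window was 38.7%, lower than in all but 7.91% of windows. GGCGGG was found in both ferredoxin system windows, 2 times in Fdx1 and 4 times in Fdxr, and in 35.3% of all windows. The first Cyp11a1 window holds GGGCGG on the opposite strand, a form that was not searched. TATAA was present in the second Cyp11a1 window and in Fdx1, in both after the annotated start and not before it, and in 24.9% of all windows. GATAA was present in Fdx1, Fdxr and Hsd3b1, and in 25.4% of all windows. The second Cyp11a1 window and that of Hsd3b1 also hold GATAG, which was not searched. Of the other windows, Lhcgr had 14 CpG pairs and GGCGGG 5 times. Hsd17b3 had 3 CpG pairs, 1 GATAA and 1 GGCGGG. Insl3 had 16 CpG pairs, 1 GGCGGG and TATAA before its start. The sequence AAGGTCA, the core bound by the steroidogenic factor NR5A1, was found in 4.72% of all windows and in none of the 8, nor was AAGGNCA, found in 20.3%. A match is a description of letters and not of a bound site, and the absence of these letters from a window says nothing about binding elsewhere. CpG content did not follow the group pattern in every gene, since Lhcgr, not above background in ESC, had nearly as many CpG pairs as Fdx1.

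Of the 9 genes measured, 8 were higher in soma and the ninth, Hsd17b1, did not pass. The test was limma with Benjamini-Hochberg adjustment over all genes at a threshold of 0.05, on log2 signals scaled to each array's 75th percentile. Of all genes tested, 38.3% were called higher in soma by the same rule, and 84.9% were called in either direction. In this fit all 8 were at least 4-fold higher in soma, against 12.9% of all genes. Their values separate into 2 kinds. Cyp11a1, Hsd3b1, Hsd17b3 and Lhcgr were not well above background on any ESC array, as were 6.33% of genes tested, and these had to come out higher in soma because the filter kept them for being above background on every soma array. Star, Fdx1, Fdxr, Cyp17a1 and Hsd17b1 were well above background on all 6 arrays, and 4 of these 5 were higher in soma, against 34.8% of all genes so measured. The median log2 difference over the 9 genes was 4.47, or 3.31 with the 4 dim genes at their bound, and that of all genes was -0.14. In bulk samples, fewer cells of a type and less RNA per cell cannot be told apart.

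**Figure D1:**
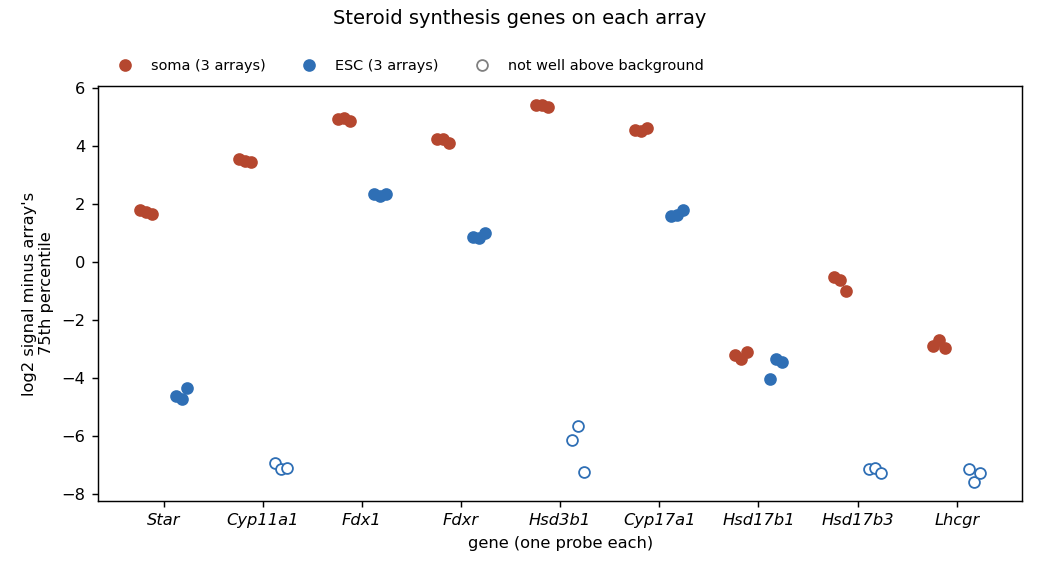
Log2 signal less the array's 75th percentile (vertical axis) for the probe that represents each of the 9 measured genes, with soma arrays left of ESC arrays and open circles where the probe was not well above background. Every soma value lies above every ESC value of the same gene, with the narrowest gap for Hsd17b1, and levels of different probes are not comparable.

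Star, the cholesterol carrier, had processed signals of 4565, 4549 and 3863 on soma 1 to 3, against 41.0, 36.6 and 46.6 on ESC 1 to 3. It was low but well above background on every ESC array, and the groups were far apart. The fold was 77.9 (log2 difference 6.28 ± 0.11, SE, n = 3 per group, limma adjusted p 2.23e-07). A second Star probe read 1489, 1469 and 1198 in soma, against 6.79, 9.75 and 31.7 in ESC, where only ESC 3 was well above background. It gave a log2 difference of 6.32 ± 0.58 (SE, n = 3 per group), a value set mostly against background on ESC 1 and ESC 2, which does not serve as a check of the first probe's.

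Cyp11a1, whose enzyme makes the first steroid, read 15457, 15291 and 13420 in soma, against 8.17, 6.80 and 6.99 in ESC. The ESC signals lay below the lowest signal of any probe well above background on those arrays, which was 33.3, 23.4 and 28.1. Cyp11a1 was thus at least 391-fold higher in soma, with no p-value given, since the filter had fixed its direction. Such a bound sets the soma mean against the lowest signal that counts as above background on each ESC array. It belongs to this scaling. Normexp background correction was run with an offset of 50 added to every signal, which by itself shrinks the log2 differences of dim signals. With it the fitted log2 difference was as low as 7.14, under the bound of 8.61.

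The partners of CYP11A1 were present in both groups. Fdx1, which carries electrons to mitochondrial cytochromes P450, read 40322, 43222 and 36013 in soma, against 5152, 4717 and 4785 in ESC. Its fold was 6.05 (log2 difference 2.60 ± 0.05, SE, n = 3 per group, limma adjusted p 3.23e-07), and its second probe gave 2.52 ± 0.05. Fdxr, which passes electrons from NADPH to ferredoxin, read 25179, 25883 and 21354 in soma, against 1826, 1717 and 1888 in ESC. It was 9.89-fold higher in soma (log2 difference 3.31 ± 0.07, SE, n = 3 per group, limma adjusted p 3.61e-07). Both genes are used outside steroid synthesis too, in mitochondrial iron-sulfur cluster and related work, and in both the ESC signal stood well clear of background.

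Hsd3b1, whose enzyme turns pregnenolone into progesterone, read 55921, 58310 and 50651 in soma, against 14.2, 19.4 and 6.32 in ESC. No ESC array was well above background, and the soma mean was at least 1459-fold higher, in a direction that the filter had fixed. The Hsd3b genes are close copies of each other, and the probes' sequences were not used here, so signal from a relative cannot be set apart. Among the relatives, Hsd3b6, the form of adult mouse Leydig cells, read 1490, 1538 and 1210 in soma, against 6.90, 4.79 and 5.73 in ESC, and was at least 37.4-fold higher in soma. Hsd3b3 stayed at background on all 6 arrays.

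Cyp17a1, whose enzyme commits pregnenolone and progesterone to androgens, was well above background in both groups. It read 31030, 31736 and 30145 in soma, against 3025, 2949 and 3280 in ESC. The fold was 7.47 (log2 difference 2.90 ± 0.07, SE, n = 3 per group, limma adjusted p 5.38e-07). The genes of the enzymes next to it in the pathway, Cyp11a1 and Hsd3b1, were not well above background on the same ESC arrays. Only 1 probe gives this value, and the probe's own sequence was not used here.

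Of the 2 genes of the HSD17B family, Hsd17b3 was called higher in soma, a direction fixed by the filter, and Hsd17b1 was not called. The difference between them was not tested. Hsd17b3, which makes testosterone from androstenedione, read 936, 889 and 619 in soma, against 7.20, 7.04 and 6.09 in ESC. It was at least 21.3-fold higher in soma. The summed signal of 15 Sertoli markers was 106 to 129 times the array's 75th percentile in soma and 6.69 to 8.14 times in ESC, and the part of Sertoli cells in the Hsd17b3 value was not tested. Hsd17b1, known best for making estradiol from estrone, was dim in both groups, at 144, 136 and 144 in soma, against 62.2, 94.5 and 87.2 in ESC. Its soma arrays lay above its ESC arrays, as did those of 39.5% of genes (ESC lay above in 47.7%), but the difference did not pass (log2 difference 0.39 ± 0.19, SE, n = 3 per group, limma adjusted p 0.0937). The 95% interval of its fold ran between 0.953 and 1.81. ESC 1 lay lowest, by 0.41 on the log2 scale under the ESC mean, and without it the log2 difference was 0.19 (limma adjusted p 0.105). Scaling to the spike-in RNA put Hsd17b1 past the threshold (log2 difference 0.63, limma adjusted p 0.0288), and normexp with quantile normalization left it at 0.07.

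Lhcgr, the luteinizing hormone receptor, read 180, 211 and 158 in soma, against 7.23, 5.05 and 6.20 in ESC. Every soma array was well above background and no ESC array was. The bound was 4.83-fold higher in soma, the smallest of the 4 bounds, in a direction that the filter had fixed. Of the receptor's partners in signalling, Gnas, which encodes the G protein subunit that switches on adenylate cyclase, rose by 2.09 on the log2 scale in soma, and the catalytic subunit gene of protein kinase A, Prkaca, by 0.30, a call that 4 of 5 other scalings or background corrections ended, as did leaving out any 1 of the ESC arrays.

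**Figure D2:**
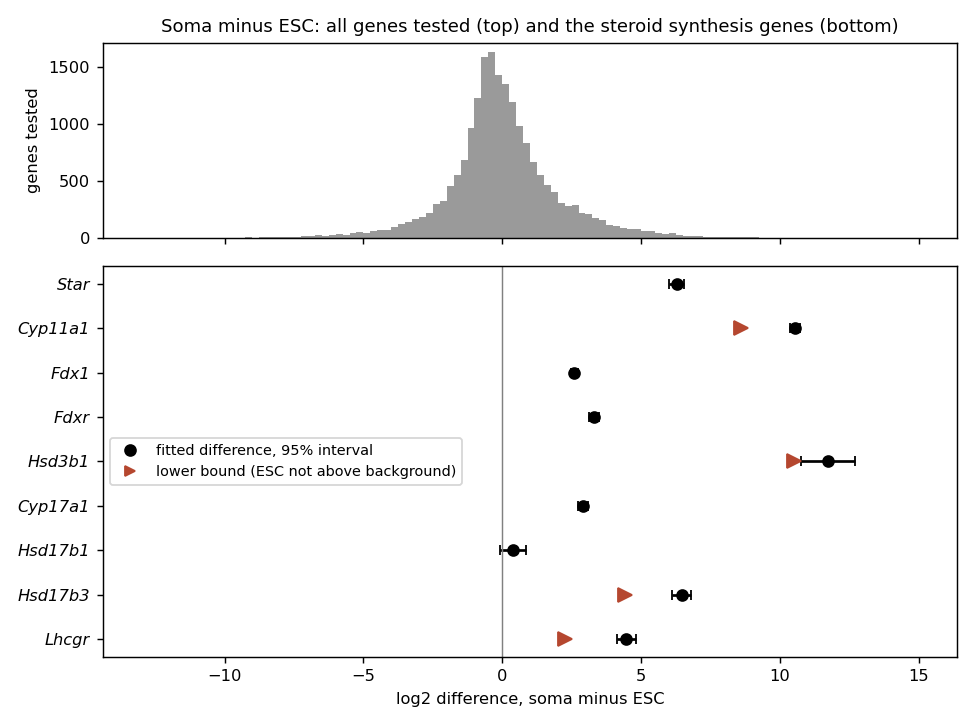
The top panel counts all 19670 genes tested by their log2 difference, soma minus ESC, and the bottom panel gives the fitted difference of each steroid synthesis gene with its 95% interval and, as red triangles, the lower bound of the 4 genes not above background in ESC. The fitted values lie between 0.39 and 11.73, those of the 4 genes with triangles are known only as at least their bound, and the interval of Hsd17b1 alone crosses 0.

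The soma arrays agreed closely for most of the genes. Deviations from the soma mean were within 0.09 on the log2 scale for Star, Cyp11a1, Fdx1, Fdxr, Hsd3b1 and Cyp17a1. Hsd17b3 had the widest spread, at 0.21, 0.08 and -0.29 on soma 1 to 3. The Sertoli markers, as a median over 15 genes, deviated by 0.16, 0.01 and -0.14 on the same arrays, and the adrenal cortex markers by 0.06, 0.02 and -0.15. Germ cell markers went the other way, by -0.60, 0.03 and 0.53. The part of these cell types in the spread of Hsd17b3 was not tested. Soma 3 shared a slide with the ESC arrays, whereas soma 1 and soma 2 were on another. Each scan held 1 group, and the effects of scan and group thus cannot be told apart. With soma 3 alone against the 3 ESC arrays, the log2 differences were 6.21 for Star, 2.54 for Fdx1, 3.22 for Fdxr and 2.95 for Cyp17a1.

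**Figure D3:**
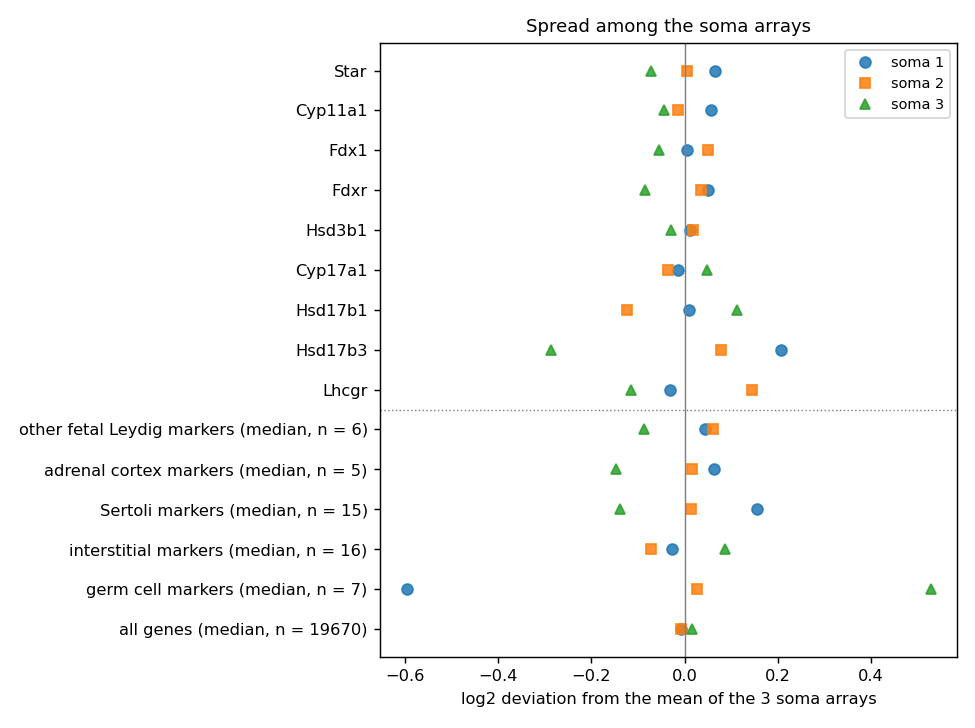
Log2 deviation of each soma array from the mean of the 3 soma arrays, for the 9 measured genes above the dotted line and for the medians of marker lists and of all genes below it. Hsd17b3 spans -0.29 to 0.21, while Star, Cyp11a1, Fdx1, Fdxr, Hsd3b1 and Cyp17a1 stay within 0.09 of 0.

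Markers of fetal Leydig, Sertoli and other cell types were read in the same test. In bulk samples they do not show which cells express the steroid synthesis genes. Of 6 further fetal Leydig markers 5 were higher in soma and 1, Thbs2, was higher in ESC (log2 difference -1.23, named after its value was seen). Of the 5, Vsnl1 read 378, 309 and 171 in soma, against 8.55, 88.9 and 7.13 in ESC. Its call was lost in 3 of the fits that left out 1 array. The filter fixed the direction of Mc2r. Prlr, the prolactin receptor gene, stood at 5.94, and the renin gene Ren1, which has a near-identical copy, at 4.02. Crhr1, the receptor gene for corticotropin-releasing hormone, had 2166, 2348 and 1925 in soma, against 30.5, 26.2 and 26.2 in ESC, where 1 array was well above background. Mc2r, the receptor gene for corticotropin, was at least 22.2-fold higher in soma. The summed signal of these 6 markers was 7.53 to 7.59 times the array's 75th percentile in soma and 0.389 to 0.464 times in ESC. All 15 Sertoli markers were higher in soma, with Cst9 by at least 827-fold, Defb19 by at least 323-fold, Vnn1 by at least 66.4-fold and Mro by at least 48.9-fold. All 16 interstitial markers, 8 of 8 tested macrophage markers and 7 of 7 tested erythroid markers were also higher in soma, against 38.3% of all genes. Of these lists 8 Sertoli, 3 interstitial, 4 macrophage and 5 erythroid markers were not well above background on any ESC array, so that the filter fixed their direction. The macrophage marker C1qa read 419, 395 and 403 in soma, against 7.73, 5.36 and 167 in ESC. Its call was lost in 5 of the fits that left out 1 array. Also higher in soma were both tested markers of adult Leydig cells out of 5 listed, 5 of 10 endothelial markers, 2 of 7 germ cell markers and 1 of 6 mesonephric markers. The filter likewise fixed the direction of 1 adult Leydig, 3 endothelial, 1 germ cell and 1 mesonephric marker among these. Of 12 pluripotency markers 11 were higher in ESC and 1, Nanog, was higher in soma. Nanog had only 1 probe, which read 458, 430 and 550 in soma, against 115, 133 and 127 in ESC. Zfp42 read 50761, 41580 and 43605 on the same ESC arrays. Whether the Nanog probe reports its transcript well was not tested.

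Genes of the adrenal cortex, the other steroid-producing organ of the embryo, were also measured in soma. Of 6 adrenal cortex markers 5 were tested and all 5 were higher in soma, of which 3 were not well above background on any ESC array. The lists share genes: Mc2r also stands among the fetal Leydig markers, and Cyp11b1 and Cyp21a1 among the further steroid enzymes. Cyp11b1, whose enzyme makes corticosterone, read 682, 571 and 399.6 in soma, against 6.99, 4.86 and 5.84 in ESC, and was at least 14.3-fold higher. Cyp21a1, the steroid 21-hydroxylase gene, read 944, 937 and 806 in soma, against 127, 108 and 117 in ESC, a log2 difference of 2.50 ± 0.07 (SE, n = 3 per group). Mrap, which encodes a partner of the corticotropin receptor, was at least 26.9-fold higher in soma. Akr1b7 had 556, 533 and 429 in soma, against 17.6, 39.5 and 24.8 in ESC, where 1 array was well above background. Cyp11b2, the aldosterone synthase gene, stayed at background on all 6 arrays. The summed signal of the 5 tested markers was 2.55 to 3.08 times the 75th percentile in soma and 0.165 to 0.179 times in ESC. Cells with adrenal features are known in the mouse fetal testis, and their part in the steroid genes' values was not tested.

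Other genes of steroid metabolism went both ways. Of 28 further enzymes 16 were tested, of which 9 rose in soma, 5 were higher in ESC and 2 missed the threshold, with a median log2 difference of 0.62. Of the 9, 3 were not well above background on any ESC array. Hsd17b14, whose product oxidizes steroids and other substrates, was the widest of the 5, with signals of 79.6, 76.4 and 75.7 in soma, against 12278, 9610 and 10184 in ESC (log2 difference -7.53 ± 0.09, SE, n = 3 per group, limma adjusted p 1.52e-07). Hsd11b2, whose enzyme inactivates corticosterone, read 1073, 1126 and 1041 in soma, against 6.77, 4.73 and 237 in ESC, so that ESC 3 stood apart (log2 difference 5.35 ± 1.52, SE, n = 3 per group, limma adjusted p 0.0168). ESC 3 alone was well above background, without it the log2 difference was 7.17 against background, and without ESC 1 the call was lost (4.56, limma adjusted p 0.0564). Cyp19a1, the aromatase gene, had no array well above background, with signals of 17.0 to 18.1 in soma and 7.61 to 8.41 in ESC.

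Of 12 cholesterol supply genes 5 rose in soma, 4 fell and 3 missed the threshold (median log2 difference 0.12), next to 38.3% of all genes that were higher in soma and 46.6% that were higher in ESC. Of the 4 that fell, Npc1 and Dbi changed sign and Tspo lost its call under other scalings or background corrections, and all 3 were named after their values were seen. Scarb1, the receptor that takes up cholesterol from high-density lipoprotein, read 18821, 18011 and 16369 in soma, against 1888, 1700 and 1682 in ESC, a log2 difference of 2.91 ± 0.06 (SE, n = 3 per group, limma adjusted p 3.15e-07). Stard3, a cholesterol transfer protein gene, stood at 0.89, Lipe, the gene of the lipase that frees stored cholesterol, was at least 1.57-fold higher in soma (fitted log2 difference 1.18, but 0.21 and not called under 1 of 5 other scalings or background corrections), and Vdac1, a channel of the outer mitochondrial membrane, stood at -0.99. Of 7 electron donor genes 3 rose in soma, 3 fell and 1 missed the threshold (median log2 difference 0.16), again near those shares over all genes. Of the 3 that rose, Cyb5b (0.82) had another probe called higher in ESC. Cyb5a, 1 of the 3 that fell (-0.49), reached 0.06 under another setting and changed sign under 2. Por, the reductase that serves CYP17A1, stood at 1.07 and H6pd, which makes NADPH in the endoplasmic reticulum, at 2.41, while Cyb5r1 stood at -2.44. Fdx2, a mitochondrial relative of Fdx1 that serves iron-sulfur cluster assembly, was higher in ESC (log2 difference -1.18 ± 0.06, SE, n = 3 per group), the opposite direction to Fdx1.

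Of 19 regulators of Leydig and gonad development 16 rose in soma, 1 of them with a direction fixed by the filter, and 3 fell (median log2 difference 5.41). Nr5a1, the nuclear receptor that activates steroid synthesis genes, read 18968, 20277 and 17655 in soma, against 96.5, 102 and 91.7 in ESC (log2 difference 7.19 ± 0.06, SE, n = 3 per group, limma adjusted p 1.39e-07). The interstitial factor Nr2f2 stood at 8.98, with 2 of 3 ESC arrays well above background, and Dhh, the Sertoli signal that fetal Leydig cells depend on, at 7.67. Tcf21, another interstitial factor, had 10157, 9929 and 10668 in soma, against 257.7, 4.97 and 5.97 in ESC, where ESC 1 alone was well above background. Its log2 difference was 8.60 ± 1.53 (SE, n = 3 per group), and 10.43 against background without ESC 1. The 3 regulators higher in ESC were Nr5a2 (-6.89), a relative of Nr5a1, Nr0b1 (-3.49), which restrains NR5A1, and Pdgfa (-1.26), of which all were named after their values were seen. Of 14 genes of hormone signalling 9 were tested, 7 of them higher in soma and 1 in ESC. Of the 7, 3 had a direction fixed by the filter. Esr1, an estrogen receptor gene, was at least 7.40-fold higher in soma, and Pde8b, a phosphodiesterase that limits cyclic AMP in steroid-producing cells, at least 7.27-fold. Fshr and the INSL3 receptor gene Rxfp2 were not well above background on any array.

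**Figure D4:**
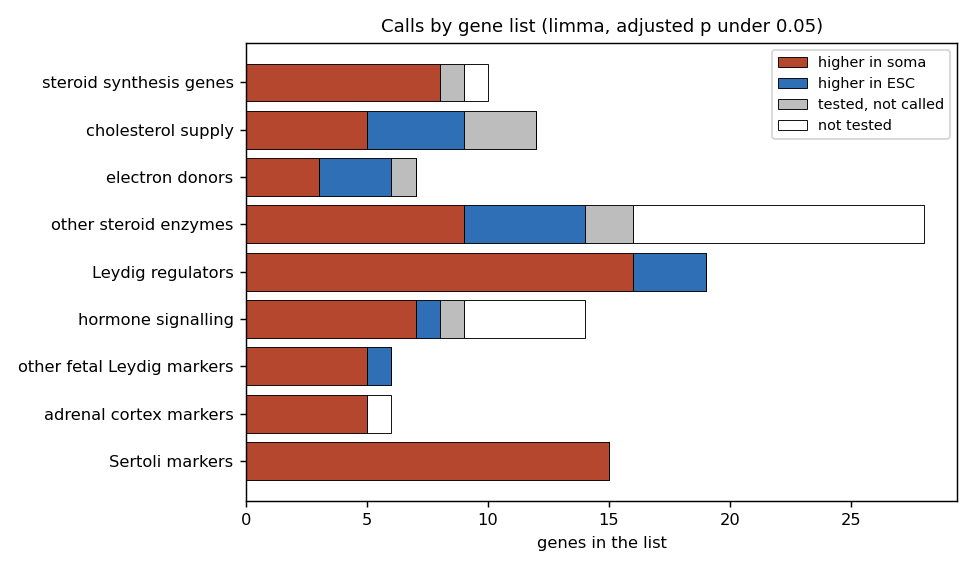
Number of genes in each list that were called higher in soma, called higher in ESC, tested but not called, or not tested (limma, adjusted p under 0.05). Of the 9 steroid synthesis genes tested 8 were higher in soma, 4 of them with a direction fixed by the filter, and the counts for tested genes of other lists were 5 of 12 for cholesterol supply, 3 of 7 for electron donors and 9 of 16 for other steroid enzymes.

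The genes whose profile over the 6 arrays was nearest to that of Star were Bean1, Rcsd1 and Podxl2, at a root-mean-square distance of 0.11, 0.12 and 0.12 on the log2 scale after centring each gene. For Cyp11a1 they were Cst8, Defb19 and C1qtnf7, at 0.11, 0.17 and 0.21. The profiles were centred but not scaled, so this distance mostly follows the size of the soma to ESC difference. That difference was 6.28 for Star and 6.27, 6.44 and 6.15 for Bean1, Rcsd1 and Podxl2. The ESC part of the Cyp11a1 profile is background signal.

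On the arrays as a whole, the 75th percentile of the signal was 1245 to 1388 in soma and 959 to 1016 in ESC (two-sided exact permutation p = 0.1, the smallest that 3 arrays against 3 allow). The share of gene probes above background ran between 56.0% and 63.2% per array, and saturation did not occur. The median log2 difference of all genes, -0.14, lay between -0.34 and 0.10 under other scalings or background corrections. The direction of Star, Fdx1, Fdxr and Cyp17a1 stayed the same under these. The number of arrays limits the precision.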

How the data were processed

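Each sample's RNA was labelled with Cy3 and put on 1 array, per the labels' protocols. The deposited intensity is the processed signal of Feature Extraction 10.7.3.1 per the file headers, already corrected for background and spatial trend, and not scaled across arrays. The deposited log2 table, used as an alternative, was found to be that signal relative to the array's 75th percentile, centred on each probe's median (100% of probes within 0.01). Its columns had medians of 0.06, -0.25 and -0.07 in soma samples and of 0.16, -0.09 and 0.06 in ESC samples.

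Log2 signals were averaged over a probe's spots, without control and outlier spots, and scaled by the 75th percentile over probes. A probe was kept when well above background on all arrays of at least 1 group (24150 of 39429). Symbols came from matching transcripts to RefSeq genes of GRCm38.p6 (66.1% of probes), and the brightest kept probe stood for a gene. The array's grid was built on mm9, so no gene coordinates are given. The test was limma 3.58.1 (R 4.3.3) on soma minus ESC, two-sided, with Benjamini-Hochberg adjustment over all genes. Errors are the SE of that fit. The members and gene lists were chosen with earlier results of these data known. Genes named from a list are up to 4 called genes with the largest absolute difference (some are not reported here), plus Nr5a1, Cyp11b1, Cyp21a1, Cyp19a1 and Hsd3b6. Further genes were named after their values were seen (Thbs2, Vsnl1, C1qa, Nanog, Prkaca, Cyp11b2, Npc1, Dbi, Tspo, Cyb5a, Cyb5b, Hsd3b3, Fshr, Rxfp2, Nr5a2, Nr0b1 and Pdgfa). Normexp used the spots' median signal and an offset of 50. The method was tested on simulated data. Same-numbered soma and ESC samples deviated from their group means with correlations of -0.05, 0.07 and 0.03.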

Additional observations from a re-analysis of the deposited data

How the results depend on the processing

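Star, Fdx1, Fdxr, Cyp17a1 and Hsd17b1 kept their direction under every alternative. Their side of the threshold also held, except that Hsd17b1 passed under spike-in scaling (0.63). Cyp11a1, Hsd3b1, Hsd17b3 and Lhcgr, where fitted, kept theirs too, but the filter had fixed their direction. The alternatives covered scaling (quantile, array median, spike-in RNA), normexp background correction with 2 scalings, 3 filters on dim probes, and single or averaged probes per gene. They also covered the deposited log2 table, a robust variance trend, and slide, scan and replicate blocks. Further fits took soma 3 alone on the shared slide (for direction only) or left out single arrays. Not all were separate checks. The slide block and soma 3 alone gave the same differences (2.54 for Fdx1 in both). The deposited table held the same signal, and scan could not be told from group. With the filter that asks for all 6 arrays above background, 4 steroid synthesis genes were higher in soma in place of 8, since Cyp11a1, Hsd3b1, Hsd17b3 and Lhcgr were then not tested, and 51 genes of the other lists in place of 94. Normexp moved the dim genes most, and its added offset of 50 by itself shrinks the log2 differences of dim signals. Under normexp and the 75th percentile the log2 differences were 7.14 for Cyp11a1, 8.94 for Hsd3b1, 3.21 for Hsd17b3, 1.61 for Lhcgr and 5.01 for Star. Lhcgr was thus less than 4-fold higher in soma there. With the replicate number as a block 8 steroid synthesis genes and 16476 genes in all were called, against 8 and 16709 without it. The numbers do not pair the samples, since the labels name no shared source and the deviations were nearly uncorrelated. With each array left out in turn, 8 steroid synthesis genes were higher in soma each time, and 16052 to 16586 genes were called in all. Direction changed with the scaling for Soat1, Npc1, Stard4, Dbi, Cyb5a, Cyb5r3 and Hsd17b10, among other genes of the pathway lists.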
